A study of Mus musculus with 9 samples.

Results

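Metallothioneins and zinc transporters are the genes through which epithelial cells take up, bind, store and release zinc. The genes described are Mt1 and Mt2, the zinc importers Slc39a4, Slc39a5 and Slc39a14, and Slc30a1, Slc30a2 and Slc30a10 of the zinc exporter family. They were found as the non-control probes that carry these gene names on the array, which gave 8 genes of 28478 and 12 probes of 41174. RNA had been measured on single-colour Agilent arrays, 1 per sample, in 3 groups of 3 independent replicates of epithelial cells sorted from C57BL/6 mice. The group titled MHCIIhi consisted of cells freed from small intestine with EDTA and gated as Epcam high and MHC class II high, and the group titled MHCIIlo of cells from the same kind of preparation gated as intermediate for both. Kidney cells came from tissue digested with collagenase, dispase and DNase and were gated as Epcam positive. Every gate left out CD45-positive cells and, by Fluorogold, dead cells. Each intestinal replicate pooled 3 mice and each kidney replicate pooled 4. No group carried a transgene, mutation or treatment in the labels, and the age of the mice is not stated in them.

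Zinc enters the cytosol through ZIP proteins, encoded by Slc39a genes, and leaves it through ZnT proteins, encoded by Slc30a genes, either to the outside or into vesicles. Metallothioneins are small cysteine-rich proteins that hold zinc and copper in the cytosol, and their genes respond to metals, glucocorticoids and oxidative stress. When cytosolic zinc is high, the transcription factor MTF1 binds short metal response elements and activates Mt1, Mt2 and Slc30a1. In the small intestine dietary zinc crosses the apical membrane of enterocytes, and in the kidney metallothionein is a major binder of heavy metals such as cadmium.

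The upstream sequence of Mt2 is printed because it shows the arrangement for which these genes are known, several metal response elements close to the transcription start. The 250 bases before the RefSeq start (GRCm38.p6, chr8:94172368-94172617, plus strand) held 3 copies of the element's core, TGCACNC or TGCGCNC on either strand, written here in capitals.
Mt2 upstream: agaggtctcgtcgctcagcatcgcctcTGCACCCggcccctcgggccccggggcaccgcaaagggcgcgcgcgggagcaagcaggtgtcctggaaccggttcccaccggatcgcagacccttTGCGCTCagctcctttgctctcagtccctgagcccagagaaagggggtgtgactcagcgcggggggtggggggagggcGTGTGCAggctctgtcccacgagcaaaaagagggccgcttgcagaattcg

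Of 32851 RefSeq windows of 250 bases before a start, 1.26% held at least 3 copies of the core. In the wider window of 250 bases before and 50 bases after the start, Mt2 held 4 copies and Mt1 3, against 0.517% of windows with at least 4 and 1.97% with at least 3. Slc30a1, the exporter of the same response, held 2, and 7.11% of windows held at least as many. The copies of Mt1 and Slc30a1 are printed for comparison, on the plus strand of GRCm38.p6 with the core in capitals. The number is the distance in bases from the first base of the annotated RefSeq transcript to the first base of the core. The start used in these cells was not measured.
Mt1 at -23, chr8:94179059-94179079: cccgctgTGCACACtggcgct
Mt1 at 2, chr8:94179084-94179104: ggagctcTGCACTCcgcccga
Mt1 at 20, chr8:94179102-94179122: cgaaaagTGCGCTCggctctg
Slc30a1 at -43, chr1:191906731-191906751: gggttccGAGTGCAaagcaaa
Slc30a1 at 30, chr1:191906804-191906824: ccgggccGAGCGCAgtcgccg

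In the same windows Slc30a2 held 2 copies and Slc30a10 held 3, of which a pair overlapped on opposite strands. For Slc39a5 one of its windows held 1 copy and the other 0. A window was found for 6 of the 8 genes, and Slc39a4 and Slc39a14 had no entry. A match is a description of letters and says nothing of binding.

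Levels are log2 ratios of the processed signal to the 75th percentile of all probes on that array, so that 0 is the 75th percentile, and levels of different probes are not set against each other. Where 3 values are given for a group, they are those of its replicates 1, 2 and 3 in that order. That percentile ranged from 213 to 371 units of signal for MHCIIhi, from 100.6 to 185 for MHCIIlo and from 599 to 770 for kidney. Between 51.0 and 73.2% of spots on an array were well above background. Differences are log2 values ± SE from limma, with Benjamini-Hochberg adjusted p over 19993 genes. A gene was called higher or lower at an adjusted p below 0.05 and a log2 difference of at least 1 in size. MHCIIhi 1 and 2 shared a slide, MHCIIhi 3 shared a slide and scan with all MHCIIlo arrays, and the kidney arrays had a slide of their own. Kidney and intestine can therefore not be told apart from slide and from the way the cells were released. The 3 comparisons share arrays pairwise and are not independent of each other.

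Marker genes placed the groups as follows, as levels summed over a marker list in multiples of the array's 75th percentile. A sum is carried by the brightest probes of its list, so it is compared between groups and not with sums of other lists. Enterocyte markers, 10 of 10 above background in both intestinal groups, summed to 1059 to 2425 in MHCIIhi and 3525 to 5260 in MHCIIlo, against 11.3 to 30.9 in kidney. Crypt and dividing cell markers summed to 33.7 to 67.8 in MHCIIhi and 2.04 to 4.78 in MHCIIlo, and Paneth cell markers to 1488 to 1980 and 290.5 to 1184. B and plasma cell markers summed to 1.09 to 2.17 in MHCIIhi and 21.8 to 36.3 in MHCIIlo, although CD45-positive cells were gated out. Markers of distal nephron and collecting duct summed to 1049 to 1115 in kidney, against 0.44 to 0.74 in MHCIIhi and 0.61 to 0.95 in MHCIIlo. Kidney sums were 33.1 to 118 for the proximal tubule list and 31.3 to 75.8 for the endothelial list. The proximal tubule list summed to 11.9 to 34.3 in MHCIIhi and 27.8 to 49.4 in MHCIIlo, ranges that overlap that of kidney. Cubn of that list read 5.09 on average in MHCIIlo against 0.35 in kidney. Of its 8 genes, 6 were called higher and 1 lower in kidney than in MHCIIhi, and 5 and 1 than in MHCIIlo. Over all genes, 25.6% and 29.8% were called higher. Transcripts of the proteins used in the gate did not follow the group names. H2-Ab1, an MHC class II chain, read lower in MHCIIhi than in MHCIIlo (mean 6.59 against 7.13, difference -0.55 ± 0.22, limma adjusted p = 0.0634, not called), and Epcam stood at -0.26 ± 0.30 (limma adjusted p = 0.480). The groups are therefore named by their surface gate, as the labels do. Ptprc, which encodes CD45, cleared background on 3 of 3 arrays per group. Its means were -2.42 in MHCIIhi, -1.50 in MHCIIlo and -0.98 in kidney. Ptprc was 2.73-fold higher in kidney than in MHCIIhi (1.45 ± 0.44, limma adjusted p = 0.0176). Neither kidney minus MHCIIlo (0.52 ± 0.44) nor MHCIIhi minus MHCIIlo (-0.92 ± 0.44) was called. The part of CD45-positive cells in these levels was not tested. In bulk samples such as these, fewer cells of a type and less RNA per cell cannot be told apart.

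Kidney cells had the highest Mt1 and Mt2 signal of the 3 groups. All 6 ZIP and ZnT transporters among the 8 genes were lower in kidney than in either intestinal group. All 8 were thus called in both kidney comparisons, where 48.4% of all genes were called against MHCIIhi and 57.6% against MHCIIlo. The calls of Slc30a1 held for its brighter probe. Its other probe was called in neither kidney comparison, with kidney minus MHCIIhi at -0.029 ± 0.29 and kidney minus MHCIIlo at -0.83 ± 0.29. Between the intestinal groups, where 31% of all genes were called, 4 transporters were lower in MHCIIhi than in MHCIIlo, namely the apical importer Slc39a4 and the exporters Slc30a1, Slc30a2 and Slc30a10. This count is for the brighter probe of each gene. On its other probe Slc30a1 was short of the size threshold (-0.80 ± 0.29), while Slc39a14 met both thresholds on its other probe (-1.23 ± 0.26). Neither metallothionein was called between MHCIIhi and MHCIIlo. Within the slide that held both intestinal groups, the 4 intestinal differences kept their direction but 0 were called by limma, 2 of them (Slc30a1 and Slc30a2) with an unadjusted p under 0.05.

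**Figure D1:**
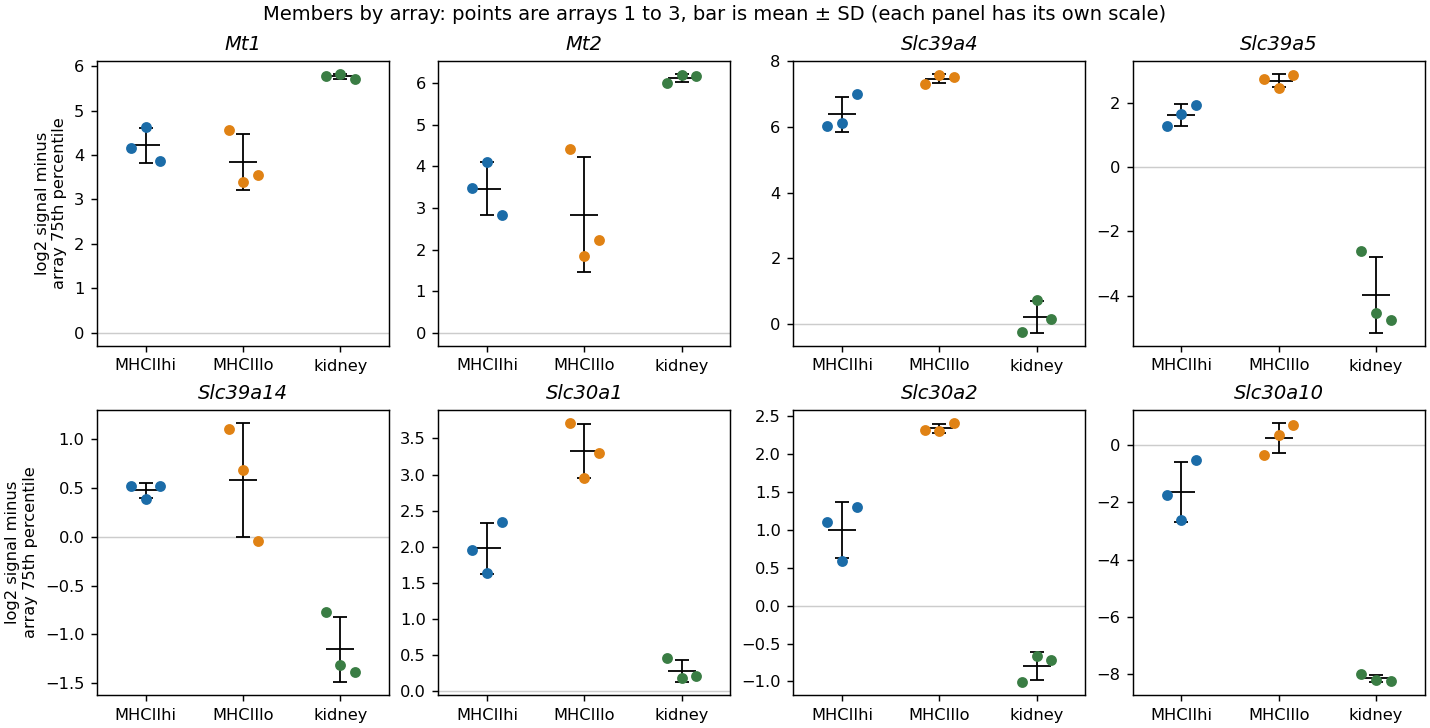
Level of each of the 8 genes on the 9 arrays, on the log2 scale relative to the 75th percentile of the array (vertical axis, a separate scale for each gene). Points are arrays in the order 1 to 3 and bars are mean ± SD; the kidney points lie above all intestinal points for Mt1 and Mt2 and below them for the 6 transporters.

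Mt1 encodes one of the metallothioneins made in most tissues. The kidney arrays read 5.78, 5.81 and 5.71, the MHCIIhi arrays 4.16, 4.63 and 3.85, and the MHCIIlo arrays 4.56, 3.39 and 3.56. The intestinal groups overlapped, with MHCIIlo 1 as high as the upper MHCIIhi arrays, while all kidney arrays lay above all intestinal ones and close together. Means were 5.77 ± 0.055 for kidney, 4.21 ± 0.39 for MHCIIhi and 3.83 ± 0.63 for MHCIIlo (SD, n = 3 each). Kidney was 2.93-fold above MHCIIhi (1.55 ± 0.32, limma adjusted p = 0.00248) and 3.81-fold above MHCIIlo (1.93 ± 0.32, limma adjusted p = 0.000557), the latter difference being 2.86 with quantile normalization. With the mean of its probes the former was 2.15. Between the intestinal groups the difference was 0.38 ± 0.32 (limma adjusted p = 0.342), with a 95% interval from -0.35 to 1.11.

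The Mt1 value is the mean of 10 spots of a single probe printed across the array, of which 9 or 10 were used per array. The SD of these spots within an array lay between 0.022 and 0.060 on the log2 scale. Spots of the same probe on 1 array share a sample, so this spread covers spot noise and not the spread between samples.

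A second Mt1 probe, designed on a cDNA clone and starting 167 bases upstream on the same strand, gave another order of the intestinal groups. Both probes are printed because the intestinal reading of Mt1 depends on which is used, and no part is in capitals. Positions are on mm8 as the array's annotation gives them, chr8:97069240-97069299 for the brighter probe and chr8:97069073-97069132 for the dimmer one, both on the plus strand.
Mt1 brighter probe: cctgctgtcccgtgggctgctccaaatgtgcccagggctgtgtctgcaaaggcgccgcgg
Mt1 dimmer probe: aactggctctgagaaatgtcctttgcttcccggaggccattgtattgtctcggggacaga

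The dimmer Mt1 probe read 0.75, 0.83 and 1.25 in kidney, against -1.75, -1.95 and -1.70 in MHCIIhi and -1.34, -1.35 and -1.04 in MHCIIlo. On this probe the intestinal groups did not overlap and MHCIIhi was the lower, by -0.55 ± 0.19 in a fit over all probes (limma adjusted p = 0.0417), short of the size threshold. Kidney was again above both, by 2.74 ± 0.19 over MHCIIhi and 2.19 ± 0.19 over MHCIIlo. The higher signal in kidney was therefore read by both Mt1 probes, whereas the direction between the intestinal groups was not shared.

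Mt2, the metallothionein gene next to Mt1 on chromosome 8, was read by a probe at chr8:97062600-97062659 on mm8. Its level was 6.00, 6.19 and 6.16 in kidney, 3.47, 4.11 and 2.82 in MHCIIhi, and 4.41, 1.86 and 2.23 in MHCIIlo. MHCIIlo 1 stood above every other intestinal array and the other 2 MHCIIlo arrays below all MHCIIhi arrays. Kidney lay above all intestinal arrays, with means of 6.12 ± 0.099 in kidney, 2.83 ± 1.38 in MHCIIlo and 3.47 ± 0.64 in MHCIIhi (SD, n = 3 each). The kidney level was 6.28-fold that of MHCIIhi (2.65 ± 0.61, limma adjusted p = 0.00454) and 9.73-fold that of MHCIIlo (3.28 ± 0.61, limma adjusted p = 0.00111). With quantile normalization these differences were 3.27 and 4.16, and without MHCIIlo 1 the latter was 4.07.

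The intestinal difference of Mt2 was 0.63 ± 0.61 (limma adjusted p = 0.407), with a 95% interval from -0.76 to 2.02. The lack of a call rested on MHCIIlo 1: without that array the difference was 1.42 and was called (limma adjusted p = 0.0120). Within the slide that held both intestinal groups it was -0.010. MHCIIlo 1 also had the highest Mt1 level on the brighter probe in its group. Its immediate-early and heat shock genes summed to 588 against 463 and 612 on the other MHCIIlo arrays, and its glucocorticoid-responsive genes to 51.5 against 37.9 and 44.2. The part of such responses in the metallothionein values was not tested. Mt1 and Mt2 are close relatives in sequence, and reading of one transcript by the other's probe was not tested.

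Slc39a4 encodes ZIP4, the importer at the apical membrane of enterocytes whose loss in humans causes the zinc deficiency disease acrodermatitis enteropathica. Its probe lies at chr15:76439691-76439750 on mm8, minus strand. The level was 7.31, 7.58 and 7.53 in MHCIIlo, 6.03, 6.12 and 7.01 in MHCIIhi, and -0.25, 0.71 and 0.12 in kidney. The groups did not overlap, and MHCIIhi 3 stood nearest to MHCIIlo. MHCIIhi was 2.12-fold lower than MHCIIlo (-1.09 ± 0.32, limma adjusted p = 0.0220). Kidney was 73.0-fold lower than MHCIIhi (-6.19 ± 0.32, limma adjusted p = 5.83e-07) and 155-fold lower than MHCIIlo (-7.28 ± 0.32, limma adjusted p = 2.02e-07).

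The intestinal call for Slc39a4 was not firm. The difference was -0.73 with quantile normalization (limma adjusted p = 0.0954), -0.76 with normexp background correction and -0.90 with slide as a random block (limma adjusted p = 0.0633), none of them called. Within the shared slide MHCIIhi was represented by 1 array and the difference was -0.46 (limma adjusted p = 0.403), with the spread of that array assumed to be that of the others. Leaving out MHCIIhi 1, MHCIIhi 2, MHCIIlo 2 or MHCIIlo 3 also ended the call, with differences of -0.91, -0.95, -1.03 and -1.06. Summed enterocyte markers moved with it, at 1317, 1059 and 2425 on the MHCIIhi arrays and 3525, 5260 and 5127 on the MHCIIlo arrays, and their part in the result was not tested.

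Slc39a5 encodes ZIP5, an importer placed at the basolateral membrane of enterocytes and found in pancreas. Its probe maps to chr10:127800233-127800655 on mm8, minus strand, a stretch longer than the probe itself. It read 1.27, 1.65 and 1.95 over MHCIIhi 1 to 3, 2.75, 2.48 and 2.88 over MHCIIlo 1 to 3, and -2.61, -4.54 and -4.78 over kidney 1 to 3. All MHCIIlo arrays lay above all MHCIIhi arrays, and the kidney arrays lay far below with kidney 1 highest. Kidney was 48.5-fold lower than MHCIIhi (-5.60 ± 0.51, limma adjusted p = 1.65e-05) and 102-fold lower than MHCIIlo (-6.68 ± 0.51, limma adjusted p = 4.60e-06). Normexp background correction, which adds an offset of 50 to each signal, gave -4.33 and -5.05, and leaving out kidney 1 gave -6.28 and -7.36. Between the intestinal groups the difference of -1.08 ± 0.51 was not called (limma adjusted p = 0.104, 95% interval from -2.23 to 0.073). It was called when the kidney arrays were left out of the fit (limma adjusted p = 0.0119) or kidney 1 alone was (limma adjusted p = 0.00899), the spread of this gene being largest in kidney (SD 1.19, against 0.34 in MHCIIhi and 0.21 in MHCIIlo). Kidney 1 also had the highest sum of proximal tubule markers, 118 against 42.7 and 33.1 on kidney 2 and 3, and their part in its Slc39a5 level was not tested.

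Slc39a14 encodes ZIP14, an importer of zinc, manganese and non-transferrin iron. With its brighter probe (chr14:69038678-69038737 on mm8, minus strand) it read -0.77, -1.31 and -1.38 in kidney, 0.52, 0.39 and 0.53 in MHCIIhi, and 1.11, 0.69 and -0.040 in MHCIIlo. The MHCIIhi arrays fell inside the range of the MHCIIlo arrays, and kidney lay below both. Kidney was 3.10-fold lower than MHCIIhi (-1.63 ± 0.30, limma adjusted p = 0.00119) and 3.34-fold lower than MHCIIlo (-1.74 ± 0.30, limma adjusted p = 0.000653). The intestinal difference was -0.11 ± 0.30 (limma adjusted p = 0.777, 95% interval from -0.78 to 0.57), and 0.15 without MHCIIlo 1.

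The other Slc39a14 probe, at chr14:69041573-69041632 on mm8, starts 2895 bases away and disagreed between the intestinal groups. It read -0.42, -0.33 and -0.21 in MHCIIlo, -1.97, -1.66 and -1.01 in MHCIIhi, and -4.26, -4.17 and -3.79 in kidney. No groups overlapped on it, and MHCIIhi was lower than MHCIIlo by -1.23 ± 0.26 (limma adjusted p = 0.00633 in the fit over all probes). Kidney was lowest on both probes, by -2.52 ± 0.26 against MHCIIhi and -3.76 ± 0.26 against MHCIIlo on this one, and by -2.75 against MHCIIlo with the mean of both.

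Slc30a1 encodes ZnT1, the exporter of the plasma membrane, placed at the basolateral side in enterocytes. Its brighter probe lies at chr1:193610329-193610388 on mm8, plus strand. The level was 1.95, 1.64 and 2.34 over MHCIIhi 1 to 3, 3.71, 2.96 and 3.31 over MHCIIlo 1 to 3, and 0.46, 0.18 and 0.21 over kidney 1 to 3. The groups formed 3 separate steps, with MHCIIlo highest and kidney lowest. MHCIIhi was 2.54-fold lower than MHCIIlo (-1.35 ± 0.25, limma adjusted p = 0.00385). Kidney was 3.24-fold lower than MHCIIhi (-1.70 ± 0.25, limma adjusted p = 0.000340) and 8.25-fold lower than MHCIIlo (-3.04 ± 0.25, limma adjusted p = 7.39e-06).

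The kidney step of Slc30a1 was not read by its other probe, which starts 3167 bases downstream at chr1:193613496-193613555. That probe gave 0.89, 0.72 and 0.74 in kidney, 0.66, 0.52 and 1.26 in MHCIIhi, and 2.18, 1.48 and 1.18 in MHCIIlo. The kidney arrays fell inside the range of MHCIIhi, and MHCIIlo 3 lay within that range too. Kidney minus MHCIIhi was -0.029 ± 0.29 on this probe (limma adjusted p = 0.939 in the fit over all probes) and was not called. Kidney minus MHCIIlo was -0.83 ± 0.29 (limma adjusted p = 0.0276) and MHCIIhi minus MHCIIlo -0.80 ± 0.29 (limma adjusted p = 0.0461). Both of these were lower than MHCIIlo at the p threshold but short of the size threshold, and so not called. With the mean of both probes kidney minus MHCIIhi was -0.86 and not called, and kidney minus MHCIIlo was -1.94. Which transcripts each probe reads was not tested.

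**Figure D2:**
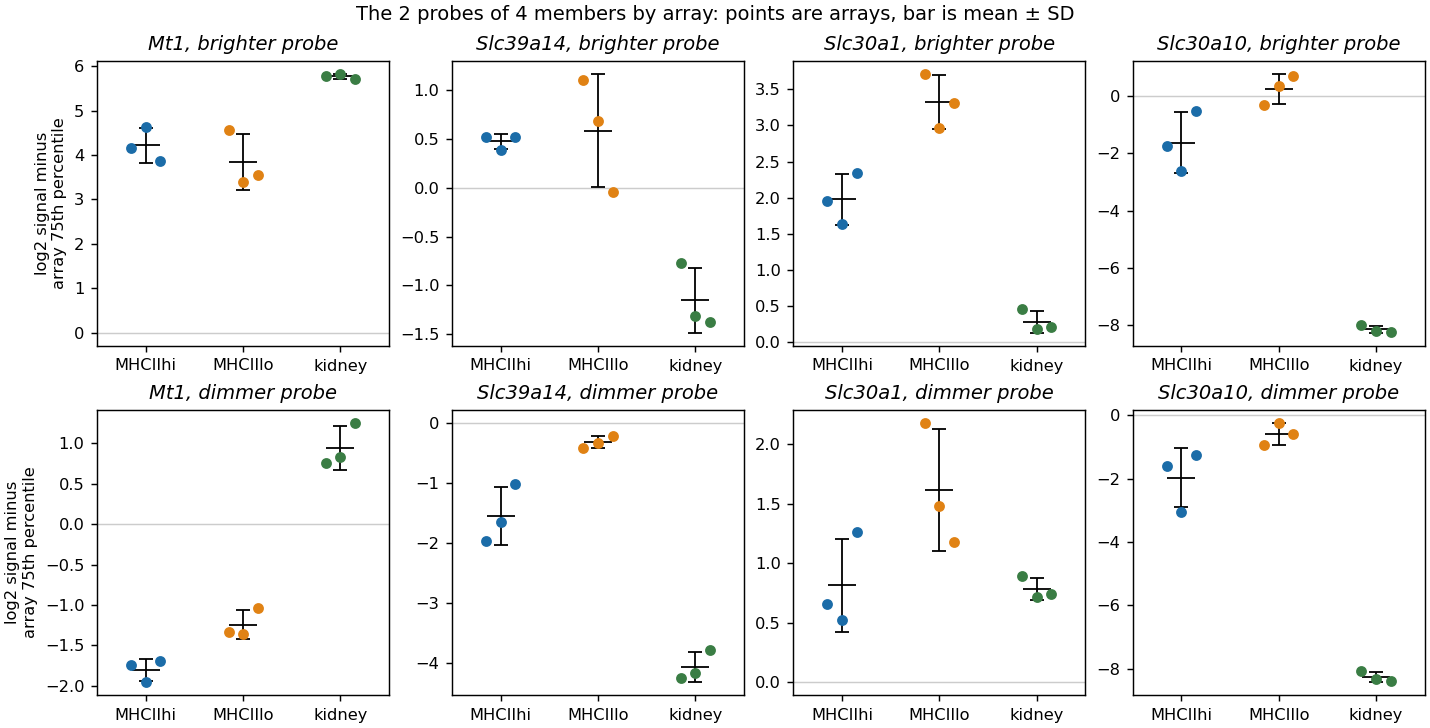
Level on each array of the brighter (top) and dimmer (bottom) probe of the 4 genes with 2 probes, on the log2 scale relative to the 75th percentile of the array, with points for arrays and bars for mean ± SD. The probes of Slc30a10 agree on the order of the groups; those of Mt1 and Slc39a14 differ between the intestinal groups, and those of Slc30a1 differ in where kidney falls.

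Slc30a2 encodes ZnT2, which loads zinc into vesicles and granules and is known from mammary gland and Paneth cells. Its probe, designed on a cDNA clone, lies at chr4:133626375-133626434 on mm8, plus strand. It read 2.31, 2.30 and 2.41 in MHCIIlo, 1.11, 0.58 and 1.30 in MHCIIhi, and -1.01, -0.67 and -0.72 in kidney. The groups did not overlap, and the MHCIIlo arrays lay within a narrow range. MHCIIhi was 2.53-fold lower than MHCIIlo (-1.34 ± 0.21, limma adjusted p = 0.00200), while the summed Paneth cell markers given above were higher in MHCIIhi. Kidney was 3.47-fold lower than MHCIIhi (-1.79 ± 0.21, limma adjusted p = 8.74e-05) and 8.78-fold lower than MHCIIlo (-3.13 ± 0.21, limma adjusted p = 2.30e-06).

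Slc30a10 encodes ZnT10, a member of the exporter family that carries manganese out of cells of liver, brain and intestine. Its brighter probe lies at chr1:187165561-187165620 on mm8, plus strand. The level was -1.76, -2.63 and -0.52 in MHCIIhi and -0.33, 0.35 and 0.70 in MHCIIlo. Signal was not well above background on any of the 3 kidney arrays, where the probe read -8.00, -8.19 and -8.23. MHCIIhi was 3.67-fold lower than MHCIIlo (-1.88 ± 0.48, limma adjusted p = 0.0136), without overlap but with MHCIIhi 3 close to MHCIIlo 1. The fitted differences use these kidney readings. They were -6.51 ± 0.48 against MHCIIhi (limma adjusted p = 5.04e-06) and -8.38 ± 0.48 against MHCIIlo (limma adjusted p = 9.33e-07). As bounds, kidney was at least 20.3-fold lower than MHCIIhi and at least 74.5-fold lower than MHCIIlo. These bounds set the kidney level at the lowest signal that was well above background on each array, and they hold for the scanner's background correction. With normexp and its offset the fitted differences were -2.41 and -3.73, both called but smaller than these bounds. The other Slc30a10 probe, at chr1:187169016-187169075, gave the same order, with MHCIIhi minus MHCIIlo at -1.37 ± 0.42 (limma adjusted p = 0.0259) and no kidney array above background.

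**Figure D3:**
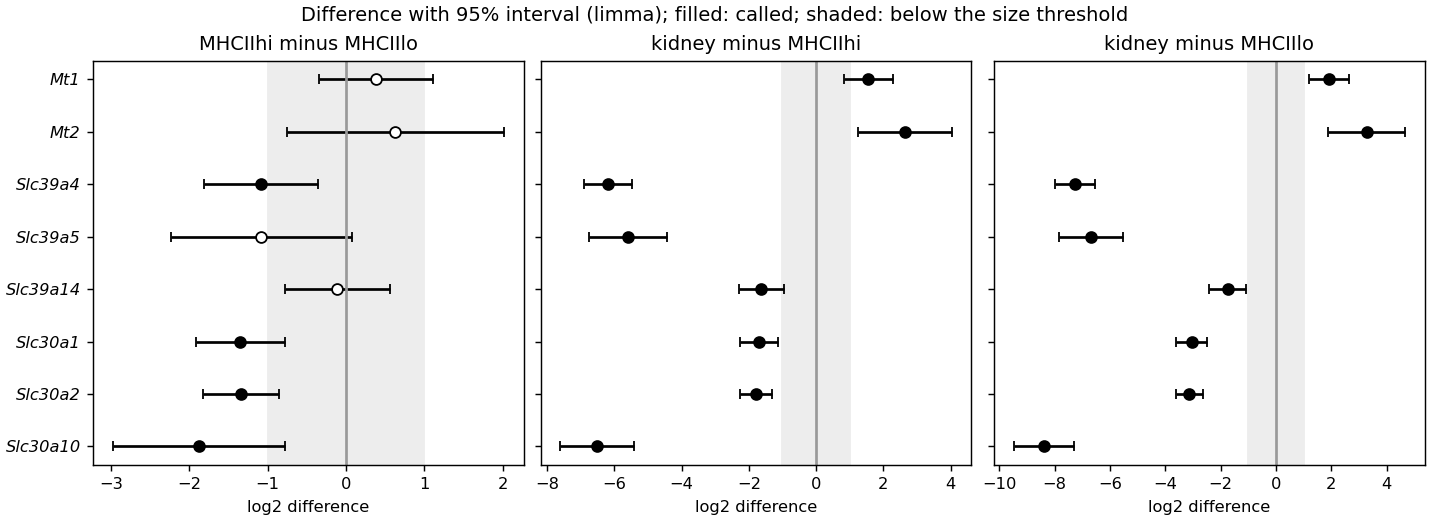
Log2 difference of each of the 8 genes in the 3 comparisons (horizontal axis) with its 95% interval from limma; filled points are called and the shaded band marks differences below the size threshold. In MHCIIhi minus MHCIIlo 4 genes are called, all lower; in both kidney comparisons all 8 are called, Mt1 and Mt2 higher and the 6 transporters lower.

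Counted over the 8 genes, MHCIIhi minus MHCIIlo gave 0 higher and 4 lower (limma, also 0 and 4 at an unadjusted p under 0.05), where 14.9% of all 19993 genes were called higher and 16.1% lower. The groups did not overlap for 5 of the 8, against 56.4% of all genes. The median difference of the 8 was -1.08, beside -0.24 for all genes, or -0.85 relative to the latter. With quantile normalization that relative median was -0.73, and with normexp background correction it was -0.24, where all genes had a median of -0.50. Within the slide that held both intestinal groups the differences were -0.46 for Slc39a4, -0.98 for Slc30a1 (limma adjusted p = 0.0945), -1.04 for Slc30a2 (limma adjusted p = 0.0530) and -0.76 for Slc30a10 (limma adjusted p = 0.300). MHCIIhi 3 alone represented its group there, and its spread was assumed to be that of the other arrays.

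Kidney minus MHCIIhi gave 2 of the 8 higher and 6 lower, against 25.6% and 22.8% of all genes, and kidney minus MHCIIlo gave the same counts, against 29.8% and 27.8%. In both, the groups did not overlap for 8 of 8 genes, as was so for 72.1% and 78.1% of all genes. Median differences of the 8 were -1.75 against MHCIIhi and -3.09 against MHCIIlo, beside -0.022 and 0.038 for all genes. Of all calls, 52.9% were higher in kidney than in MHCIIhi and 51.7% higher than in MHCIIlo, against 40.2% and 27.3% with normexp background correction. These directions were kept for all 8 genes under each scaling, background and left-out array that was tried.

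Unlike Mt1 and Mt2, neither the regulator nor the remaining metallothioneins were called higher in kidney. Mtf1, which encodes the metal-sensing activator of metallothionein genes, stood at 0.82, 0.53 and 1.14 over MHCIIhi 1 to 3, 1.75, 1.82 and 1.82 over MHCIIlo 1 to 3, and -0.97, -1.08 and -1.08 over kidney 1 to 3. Its groups did not overlap, with kidney lowest and MHCIIlo highest. Kidney was 3.66-fold below MHCIIhi (-1.87 ± 0.18, limma adjusted p = 2.56e-05) and 7.15-fold below MHCIIlo (-2.84 ± 0.18, limma adjusted p = 1.73e-06). The intestinal difference of -0.97 ± 0.18 fell short of the size threshold (limma adjusted p = 0.00404).

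Mt3, a metallothionein best known from brain, was 2.26-fold lower in MHCIIhi than in MHCIIlo (-1.17 ± 0.20, limma adjusted p = 0.00249). In kidney it was 3.24-fold lower than in MHCIIhi and 7.30-fold lower than in MHCIIlo. Mt4, known from stratified epithelium, read between -4.66 and -2.87 on all arrays, near background, and was not called in any comparison. Of these 3 genes, 1 was lower in MHCIIhi than in MHCIIlo and 2 were lower in kidney than in each intestinal group. In each comparison 0 were higher, also 0 at an unadjusted p under 0.05 in limma. Of all genes, 16.1% were called lower in MHCIIhi than in MHCIIlo. In kidney 22.8% were called lower than in MHCIIhi and 27.8% than in MHCIIlo.

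Among the other ZIP importers, 10 of 11 were tested, and Slc39a12 was not well above background on any array. In MHCIIhi 4 of the 10 were higher than in MHCIIlo and 0 were lower (limma, 1 lower at an unadjusted p under 0.05). Over all genes, 14.9% were called higher and 16.1% lower. Slc39a8, which encodes the zinc and manganese importer ZIP8, read 1.15, -0.22 and -0.12 in kidney, 0.15, -0.077 and -0.91 in MHCIIhi, and -2.19, -3.67 and -1.62 in MHCIIlo. All MHCIIlo arrays lay below all others, and MHCIIhi and kidney overlapped. It was 4.64-fold higher in MHCIIhi than in MHCIIlo (2.22 ± 0.57, limma adjusted p = 0.0135).

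Slc39a6 and Slc39a10 encode a related pair of plasma membrane importers, and Slc39a13 encodes an importer of the Golgi and vesicles needed in connective tissue. Slc39a6 was 4.00-fold higher in MHCIIhi than in MHCIIlo (limma adjusted p = 0.000521). Slc39a13 was at least 3.04-fold higher, with a fitted difference of 1.74 ± 0.35 (limma adjusted p = 0.00544). Each was measured on 2 of 3 MHCIIlo arrays. For Slc39a10 no MHCIIlo array was well above background, and MHCIIhi was at least 2.14-fold higher. The fitted difference, to which the p belongs, was 3.09 ± 0.25 (limma adjusted p = 0.000230).

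These genes were higher still in kidney, opposite to the importers among the 8. Kidney exceeded MHCIIhi 3.09-fold for Slc39a6, 3.14-fold for Slc39a10 and 15.5-fold for Slc39a13 (limma adjusted p = 1.53e-05). Against MHCIIlo kidney was 12.4-fold higher for Slc39a6, 6.78-fold for Slc39a8, at least 6.72-fold for Slc39a10 and at least 47.1-fold for Slc39a13. Slc39a11 was lower in kidney, by 4.01-fold against MHCIIhi and 3.38-fold against MHCIIlo, and Slc39a1 was 2.12-fold lower than in MHCIIlo. In all, 3 of the 10 were higher and 1 lower in kidney than in MHCIIhi, and 4 higher and 2 lower than in MHCIIlo. Of all genes, 25.6% were higher and 22.8% lower than in MHCIIhi, and 29.8% and 27.8% than in MHCIIlo. Slc39a2, Slc39a3, Slc39a7 and Slc39a9 were not called in any comparison.

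Of 7 other ZnT exporters, Slc30a3 and Slc30a8 were not tested because of low signal. Between the intestinal groups 0 of the remaining 5 were called by limma, where 31% of all genes were. At an unadjusted p under 0.05, 0 were higher and 1 was lower, the vesicular exporter Slc30a4, whose difference of -0.68 ± 0.21 was under the size threshold (limma adjusted p = 0.0270). In kidney Slc30a4 was lower, by 2.70-fold against MHCIIhi and 4.31-fold against MHCIIlo, and Slc30a9 was higher, by 2.80-fold and 2.41-fold. Slc30a5, Slc30a6 and Slc30a7, which supply zinc to the secretory pathway, were not called in any comparison.

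**Figure D4:**
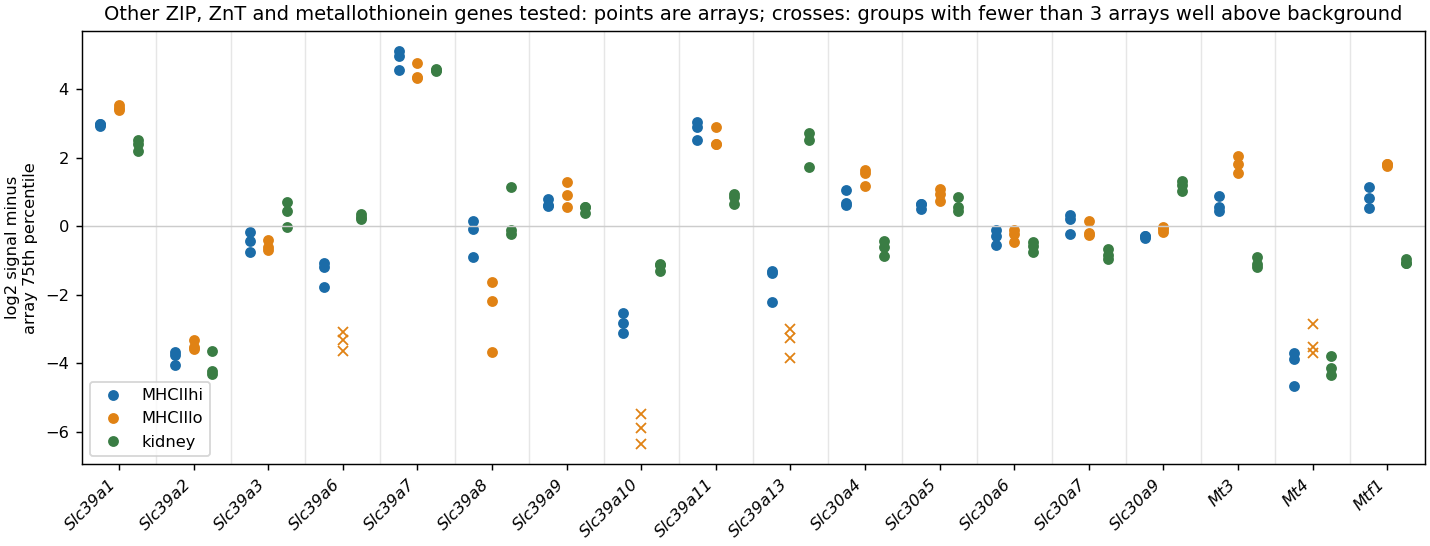
Level of the other tested ZIP, ZnT and metallothionein genes and Mtf1 on each array, on the log2 scale relative to the 75th percentile of the array; crosses mark groups with fewer than 3 arrays well above background. Slc39a6, Slc39a10 and Slc39a13 are lowest in MHCIIlo and highest in kidney, whereas Mt3 and Mtf1 are highest in MHCIIlo and lowest in kidney.

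Genes that handle neighbouring metals were counted alongside. Of 6 manganese and divalent metal genes tested, 2 were higher in MHCIIhi than in MHCIIlo and 0 lower (limma, 1 lower at an unadjusted p under 0.05). Those higher were Slc39a8 and Atp2c2, a Golgi calcium and manganese pump, the latter 5.77-fold higher (2.53 ± 0.41, limma adjusted p = 0.00232). Slc11a2, the apical importer of iron and other divalent metals, stood at -0.65 ± 0.18 and was not called. Of 10 copper genes, 1 was higher and 4 were lower in MHCIIhi (limma, 1 and 6 at an unadjusted p under 0.05), where 14.9% and 16.1% of all genes were called. Those lower included Slc31a1, the high-affinity copper importer, at 3.23-fold (limma adjusted p = 0.0162), and the copper chaperones Cox17 and Atox1, at 2.56-fold and 2.27-fold. In kidney, 3 of the 10 copper genes were higher and 3 lower than in MHCIIhi, and 2 higher and 3 lower than in MHCIIlo. The shares of all genes called higher and lower were 25.6% and 22.8% against MHCIIhi, and 29.8% and 27.8% against MHCIIlo. Slc31a2, a second copper transporter gene, was 7.57-fold and 9.94-fold higher in kidney.

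Targets of other pathways that raise metallothionein transcripts were counted in kidney too. Over all genes, 25.6% were called higher and 22.8% lower than in MHCIIhi, and 29.8% and 27.8% than in MHCIIlo, and counts near these shares say nothing particular of a list. Of 7 glucocorticoid-responsive genes, 1 was higher and 1 lower in kidney than in MHCIIhi, and 2 higher and 1 lower than in MHCIIlo. Of 9 targets of the oxidative stress factor Nrf2, 2 were higher, namely Gclc and Hmox1, and 3 were lower in kidney than in MHCIIhi, with 2 higher and 5 lower than in MHCIIlo. Hmox1 encodes heme oxygenase and was 3.56-fold above MHCIIhi (1.83 ± 0.21, limma adjusted p = 7.44e-05). Of 13 immediate-early and heat shock genes, 1 was higher and 4 were lower in kidney than in each intestinal group, and their sum was 395 to 434 in kidney against 461 to 612 over the intestinal arrays. The part of these responses in the Mt1 and Mt2 levels was not tested.

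The genes whose values over the 9 arrays were most like those of each gene were ranked by Pearson's r among 14094 named genes. Since the arrays form 3 groups, r mainly reflects group means and is given as a description. Mt1 and Mt2 ranked among each other's closest (r = 0.995), and the closest to Mt1 was Coq7 (r = 0.997). Nearest to Slc39a4 were Apol7a, Btnl1 and Slc51a, and nearest to Slc39a5 were Nlrp6, Cyp4f14 and Gsr. For Slc39a14 they were Tbc1d15, Csnk1g3 and Tspan7, and for Slc30a1 Bicdl2, Impa1 and Dhrs11. Slc30a2 was closest to Il4ra, Ifi35 and the T cell gene Cd3g, and Slc30a10 to Dpep1, Sec16b and Slc5a4a. Summed T cell markers were 1.34 to 2.97 in MHCIIhi, 5.15 to 9.75 in MHCIIlo and 0.67 to 1.33 in kidney. Of the 8 markers, 7 were above background in each intestinal group and 4 in kidney, where Cd3g was not. The order of groups was that of Slc30a2, and the enterocyte and the B and plasma cell sums shared it. Cd8a of the T cell list ran otherwise, with means of -0.32 in kidney, -1.33 in MHCIIlo and -2.63 in MHCIIhi. The part of T cells in the Slc30a2 level was not tested.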

How the data were processed

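The deposited scanner files held 45018 spots per array, of which 43379 were not controls. Per the file headers, the scanner software was Agilent Feature Extraction 10.5.1.1 and the processed signal is a linear intensity, corrected for background but not normalized between arrays. The authors' deposited value table also holds linear intensity, namely processed signal over its median on the array (largest relative deviation 2.37e-05), and it served as an alternative. Control and outlier spots were left out, and spots of a probe were averaged. Probes were named through RefSeq where accessions matched (24375 of 41174) and otherwise by the file. Probe positions are on mm8, per the file headers, and exon or UTR positions were not assigned.

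Processed signals were divided by their 75th percentile among an array's non-control probes and taken to log2. A gene was its brightest probe, kept where all 3 arrays of some group were well above background. Group was fitted over all 9 arrays with limma 3.58.1 (lmFit, eBayes) in R 4.3.3, on code tested on simulated data. Replicates are independent pools per the labels. The numbering does not pair samples. The text names the 8 genes, their family lists, called genes of other lists, the 3 genes most like each, and markers. Members and lists were chosen with earlier results of these data known. Alternatives were other scalings (quantile, median), normexp background with offset 50, the authors' table, other filters and probe rules, other fits, replicate or slide as a block, and leaving out each array. Array number, 3 per group, limits precision. Promoter windows came from RefSeq (GRCm38.p6).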

Additional observations from a re-analysis of the deposited data

How the results depend on the processing

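In both kidney comparisons all 8 genes kept their direction under each alternative, and the only lost calls were those of Slc30a1 with its dimmer probe or the mean of its probes, given above. Sizes moved by over 1.5 times under the settings named beside them above, and with quantile normalization Slc30a10 moved to -5.57 and -7.37 and with its dimmer probe to -7.66 against MHCIIlo. Between the intestinal groups, directions turned for Mt1 with the mean of its probes (-0.087) and with its dimmer probe (-0.55, an alternative added after seeing the data), for Mt2 with slide as a fixed block (-0.010), and for Slc39a14 without MHCIIlo 1 (0.15, in a range of -0.42 to 0.15 over the fits that left out an array). The number of the 8 called higher in MHCIIhi was 0 to 1 over the fits that left out an array, 1 without MHCIIlo 1, and the number called lower was 0 with slide as a fixed block. Over all genes, 2979 were called higher and 3220 lower in MHCIIhi. These counts became 1439 and 1511 with normexp, 1379 and 303 with slide as a fixed block, and 1720 higher under a filter on all arrays. The lower count was 5543 with no filter, 5694 with no size threshold, 1969 with slide as a random block, 1707 without MHCIIhi 2, 4967 without MHCIIhi 3, 2117 without MHCIIlo 2 and 2116 without MHCIIlo 3. For kidney minus MHCIIhi, 5120 higher became 2860 with normexp and 1924 under a filter on all arrays, and 4561 lower became 8480 with no filter. For kidney minus MHCIIlo, 5950 higher became 2982 and 2509, and 5568 lower became 11796. Under the filter on all arrays Slc30a10 was not tested. The cause of these shifts was not tested, except that the filters change which genes enter.

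Samples with the same replicate number did not deviate together (correlations from -0.35 to 0.28), so the numbers do not pair the samples. With the replicate block, 2968 genes were higher and 3176 lower in MHCIIhi, and the 8 genes kept their calls, with Slc39a4 at -1.09 (limma adjusted p = 0.0229).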
